A study of Mus musculus with 16 samples.

Results

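Transcripts of 10 replication licensing genes were followed in mouse oocytes and eggs. They were the helicase subunits Mcm2, Mcm3, Mcm4, Mcm5, Mcm6 and Mcm7, the loading factors Cdc6 and Cdt1, the Cdt1 inhibitor Gmnn, and Orc6, a subunit of the origin recognition complex. The genes were listed by name, a choice made with earlier results of these data known, and each of the 10 matched 1 of the 28618 entries of the expression table.

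Licensing prepares chromosomes for DNA replication. The origin recognition complex, together with Cdc6 and Cdt1, loads rings made of Mcm2 to Mcm7 onto DNA, and these rings are later activated as the replicative helicase. Geminin, the product of Gmnn, binds Cdt1 and blocks loading outside the proper window of the cell cycle. Oocytes complete their last S phase before birth and replicate no DNA between the meiotic divisions, so transcripts stored in the oocyte matter for the S phase of the zygote.

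The study compares wildtype (WT) mice with oocyte-specific Psma7 conditional knockout (Psma7 cKO) mice, and asks how loss of an α-subunit of the 20S proteasome alters the oocyte and the egg. There were 4 groups of 4 libraries, 16 in all: WT and Psma7 cKO oocytes at the germinal vesicle (GV) stage, arrested in prophase, and WT and Psma7 cKO eggs at metaphase II (MII). The cKO genotype was Zp3-Cre; Psma7 flox/flox, in which Cre is active in growing oocytes and the follicle cells keep the gene. Whether the wildtype females carried floxed alleles was not given in the sources used here. All females were 3 to 4 weeks old and received 5 IU pregnant mare serum gonadotropin (PMSG). GV oocytes were taken 44 h later into M2 medium. For MII eggs, human chorionic gonadotropin (hCG) was given after 44 h, the eggs came from the oviducts 14 to 16 h after hCG, and 0.3% hyaluronidase removed the cumulus cells. Stage therefore cannot be told apart from hCG, ovulation and hyaluronidase. By the labels a library held 5 oocytes, a number that the methods of the study give differently, and how many females supplied a pool was not given. The p-values measure the spread between these pools.

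Levels are FPKM, the fragments mapped to a transcript divided by its length and by all fragments mapped in the library, from Smart-seq2 libraries primed with oligo-dT. FPKM is thus a share of a library. A transcript that was lost, one whose poly(A) tail became too short to be primed and one diluted by other transcripts therefore cannot be told apart. Spike-in RNA (ERCC) was added at lysis, but the expression values used here held no entry whose name begins with ERCC. Amounts per cell are therefore not given. The depth estimated from the steps between low FPKM values was 10.5M to 15.7M fragments per library, with a median of 13.6M (M stands for mega). The weakest level among the 10 genes, that of Mcm5 in eggs, still rested on about 96.7 fragments in its lowest library.

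Psma7 itself was examined first as a check on the genotype labels. It stood at 154, 142, 201 and 164 FPKM in WT GV oocytes and at 14.5, 14.7, 11.1 and 18.0 FPKM in Psma7 cKO GV oocytes. WT eggs held 118, 116, 97.7 and 172 FPKM, and Psma7 cKO eggs 13.6, 50.3, 35.0 and 59.9 FPKM. Every cKO library lay below every WT library of its stage, by a ratio of means of 11.3 at GV (adjusted p = 8.98e-07) and 3.17 at MII (adjusted p = 0.0359), although the cKO eggs varied widely among themselves.

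The labelled cell type was checked against marker genes. All 12 oocyte markers were detected, with a summed level of 9592 to 17495 FPKM per library, and the most abundant were Zp3 in GV oocytes (3887 to 4436 FPKM) and H1foo, the oocyte linker histone, in eggs (2681 to 3591 FPKM). Of 20 cumulus and granulosa cell markers 19 were found, and 3 of these, Nr5a2, Cyp11a1 and Cyp19a1, reached 1 FPKM in any library. Their summed level was 14.0 to 18.7 FPKM per library, led by Cyp19a1 at 6.20 to 15.2 FPKM, and 6 of them, among them Amh, Foxl2 and Ptx3, had a median of 0 over the 16 libraries. Of the blood cell markers, Hba-a1 and Ptprc had a median of 0 and Lyz2 reached 8.88 FPKM in replicate 1 of the WT eggs.

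Some libraries stood apart from their group. On an axis over all other expressed entries that runs from 0 at the mean of WT GV oocytes to 1 at the mean of WT eggs, WT eggs lay at 0.981 to 1.02, whereas Psma7 cKO eggs lay at 0.817, 0.909, 0.604 and 0.784. The cKO eggs were thus closer to the GV profile than any WT egg library, replicate 3 most of all. Among GV oocytes, the positions of the 8 libraries ran from -0.0465 in cKO replicate 3 to 0.0544 in WT replicate 3. WT replicate 3 also had the lowest mean correlation with its own group at the GV stage (0.978 against up to 0.986).

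The order of the 10 genes was compared first among GV oocytes, where FPKM, being scaled to transcript length, allows genes to be set side by side. In the WT group the highest mean levels were those of Orc6 (82.0 ± 14.1 FPKM, SD, n = 4), Cdt1 (74.6 ± 15.1 FPKM) and Gmnn (70.6 ± 9.05 FPKM). The ranges of these 3 genes overlapped. Within libraries, Orc6 was above Gmnn in 4 of 4 and above Cdt1 in 1 of 4, and Cdt1 was above Gmnn in 3 of 4. Orc6 and Gmnn did not overlap with Mcm5 (50.1 ± 10.6 FPKM), whereas the lowest library of Cdt1 (52.2 FPKM) lay within the range of Mcm5. Below Mcm5 followed Mcm6, Mcm4, Mcm2, Cdc6, Mcm3 and Mcm7, from 42.6 ± 5.72 down to 18.7 ± 2.67 FPKM, and the ranges of neighbours overlapped from Mcm5 down, although within libraries their order was the same in 4 of 4 for every pair of neighbours but Mcm4 and Mcm2 (3 of 4). Psma7 cKO GV oocytes had the same 3 genes on top, here all without overlap with Mcm5 (51.0 ± 8.95 FPKM), with Mcm7 again lowest at 20.3 ± 3.12 FPKM.

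The order was different in eggs. Orc6 (272 ± 15.7 FPKM in WT, 266 ± 13.4 FPKM in cKO, n = 4 each) and Gmnn (149 ± 8.59 and 142 ± 8.99 FPKM) were separated from each other and from all other members without overlap. Mcm2 and Mcm4 came next in both genotypes, with overlapping ranges, Mcm2 above Mcm4 in 3 of 4 WT libraries and Mcm4 above Mcm2 in 4 of 4 cKO libraries. Cdt1, Mcm6, Mcm3, Mcm7 and Cdc6 followed between 17.1 ± 2.42 and 7.73 ± 1.96 FPKM in WT eggs, and between 25.0 ± 6.99 and 8.58 ± 1.06 FPKM in cKO eggs. Mcm5, which ranked just below Gmnn at the GV stage, was the lowest in both, at 2.27 ± 0.305 FPKM in WT eggs and 3.22 ± 0.986 FPKM in cKO eggs, with no overlap with Cdc6 above it.

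**Figure D1:**
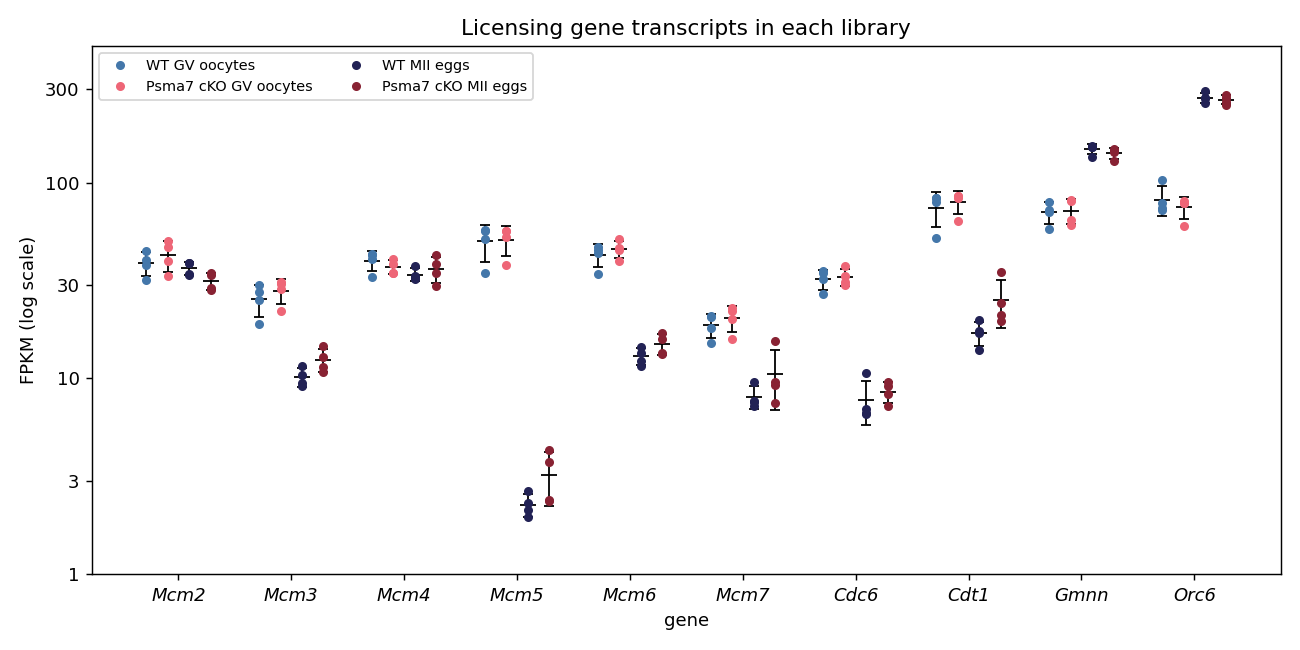
FPKM of each licensing gene on a log axis, 1 point per library, with the group mean (horizontal bar) and SD (error bar) of 4 libraries in WT GV oocytes, Psma7 cKO GV oocytes, WT MII eggs and Psma7 cKO MII eggs. Orc6 and Gmnn are higher in eggs than in GV oocytes of either genotype, Mcm5 falls from means of 50.1 and 51.0 FPKM to 2.27 and 3.22 FPKM, and the WT and cKO points of a stage overlap for all 10 genes.

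Maturation in WT females was then examined by setting WT eggs against WT GV oocytes. The helicase subunits parted company. Mcm5 fell to 4.53% of its GV level, Mcm6 to 30.4%, Mcm3 to 40.1% and Mcm7 to 43.0%, while Mcm2 and Mcm4 did not pass the test. Both loading factors fell, Cdc6 4.17-fold and Cdt1 4.37-fold, whereas the inhibitor Gmnn rose 2.11-fold and Orc6 rose 3.32-fold. In all, 6 of 10 genes were called lower, beside 52.4% of the 10475 entries tested, and 2 of 10 were called higher, beside 26.1%. These counts are near the background, since most transcripts changed their share between the stages, and the median log2 fold change was -1.26 over the 10 genes and -0.44 over all entries tested. By the rule of a more than 3-fold ratio of means, 4 genes were lower (Mcm5, Mcm6, Cdc6 and Cdt1) and 1 was higher (Orc6), beside 22.1% and 1.07% of the same entries. After rescaling, Mcm6 dropped out of this count, and 3 lower genes stood beside 19.0%.

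Mcm5, which with Mcm2 forms the gate of the helicase ring, showed the widest change of the 10. It stood at 51.9, 56.9, 34.6 and 57.1 FPKM in WT GV oocytes and at 2.31, 1.96, 2.14 and 2.67 FPKM in WT eggs. No egg library came near the lowest GV library, replicate 3. The log2 fold change was -4.45 ± 0.17 (SE), with an adjusted p of 3.13e-09. Mcm6 stood at 43.9, 46.9, 34.3 and 45.6 FPKM before and at 13.6, 11.5, 14.5 and 12.4 FPKM after maturation (log2 fold change -1.71 ± 0.12, adjusted p = 2.38e-07). Mcm3 and Mcm7 changed less, by -1.31 ± 0.15 and -1.22 ± 0.13 on the log2 scale, again with every egg library below every GV library.

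Mcm2 and Mcm4 overlapped between the stages. Mcm2 was at 38.1, 40.3, 31.8 and 44.7 FPKM in WT GV oocytes and at 39.1, 34.3, 39.0 and 34.0 FPKM in WT eggs. Its log2 fold change was -0.07, with a 95% confidence interval from -0.32 to 0.17 (adjusted p = 0.555). Mcm4 ranged from 33.1 to 43.4 FPKM before and from 32.2 to 37.7 FPKM after maturation, a log2 fold change of -0.23 with an interval from -0.46 to 0.00 (adjusted p = 0.0634). Mcm4 was called lower without WT GV replicate 3 (adjusted p = 0.00464) or without WT egg replicate 4 (adjusted p = 0.0372). Rescaling the libraries by their median ratio, which raised the median log2 fold change of all entries by 0.23, turned both values positive, to 0.16 for Mcm2 and 0.00 for Mcm4, and neither was called. Against the median of all entries without rescaling, Mcm2 stood 0.37 and Mcm4 0.21 higher on the log2 scale. Gmnn and Orc6 still rose after rescaling, and the other 6 genes still fell.

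Cdc6, the ATPase that joins the origin recognition complex to receive the helicase, was at 35.4, 34.4, 26.9 and 32.2 FPKM in WT GV oocytes and at 6.58, 6.67, 10.7 and 7.01 FPKM in WT eggs. The groups were far apart, although egg replicate 3 stood above the other eggs. Cdt1, which escorts the helicase to the origin, was at 83.4, 79.5, 52.2 and 83.4 FPKM in GV oocytes, replicate 3 being low, and at 17.5, 17.1, 19.8 and 13.9 FPKM in eggs. The log2 fold changes were -2.08 ± 0.16 for Cdc6 (adjusted p = 5.46e-07) and -2.11 ± 0.16 for Cdt1 (adjusted p = 5.03e-07).

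Gmnn moved the other way. It was at 70.8, 58.4, 80.1 and 73.0 FPKM in WT GV oocytes and at 153, 154, 136 and 151 FPKM in WT eggs, without overlap (log2 fold change 1.08 ± 0.10, adjusted p = 2.35e-06). Orc6 was at 74.5, 72.3, 103 and 78.5 FPKM before and at 270, 293, 271 and 255 FPKM after maturation (log2 fold change 1.74 ± 0.11, adjusted p = 1.20e-07). Every egg library exceeded every GV library for both genes.

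Maturation in Psma7 cKO females was examined in the same way. Mcm5 fell to 6.31%, Cdc6 to 26.0%, Cdt1 to 31.4%, Mcm6 to 32.7%, Mcm3 to 44.4% and Mcm7 to 51.7% of the level in cKO GV oocytes, while Gmnn rose 1.97-fold and Orc6 rose 3.55-fold. Mcm2 was also called lower, at 73.7% of its GV level. That made 7 of 10 genes lower, beside 51.0% of the 10748 entries tested, and 2 of 10 higher, beside 23.0%. More than 3-fold, 4 genes were lower and 1 was higher, the same genes as in WT, beside 17.2% and 0.856% of the entries. Without cKO egg replicate 4, or after rescaling, Mcm6 and Cdt1 dropped out of this count and 3 genes were left. The median log2 fold change was -1.08 over the 10 genes and -0.42 over all entries.

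In the cKO libraries Mcm5 was at 37.9, 56.5, 56.9 and 52.6 FPKM at the GV stage and at 2.40, 2.38, 4.34 and 3.76 FPKM in eggs (log2 fold change -4.02 ± 0.23, adjusted p = 1.48e-06). Cdt1 went from 63.7, 83.9, 85.4 and 85.5 FPKM to 35.1, 21.2, 24.3 and 19.6 FPKM (-1.70 ± 0.19, adjusted p = 3.69e-05). The eggs highest in Mcm5 were replicates 3 and 4, and the egg library highest in Cdt1 was replicate 1. Mcm7 was likewise highest in egg replicate 1, at 15.6 FPKM against 7.47 to 9.60 FPKM in the others, just under the lowest cKO GV library at 15.9 FPKM. Gmnn (61.1 to 81.7 FPKM, then 129 to 149 FPKM) and Orc6 (60.1 to 81.0 FPKM, then 251 to 282 FPKM) did not overlap between the stages.

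The call of Mcm2 was weak. It was at 33.4, 47.0, 50.2 and 40.0 FPKM in cKO GV oocytes and at 34.7, 33.7, 28.9 and 28.5 FPKM in cKO eggs, and the ranges overlapped. The log2 fold change was -0.43 ± 0.14 (adjusted p = 0.0193), about the median of all entries. Leaving out GV replicate 2, GV replicate 3 or egg replicate 4 ended the call, with adjusted p-values of 0.0560, 0.0537 and 0.0542. So did rescaling, with a log2 fold change of -0.23 (adjusted p = 0.166), and the fit with no filter (adjusted p = 0.0513). Mcm4 was again not called, with a log2 fold change of -0.04 and an interval from -0.32 to 0.24. Rescaling brought it to 0.16.

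**Figure D2:**
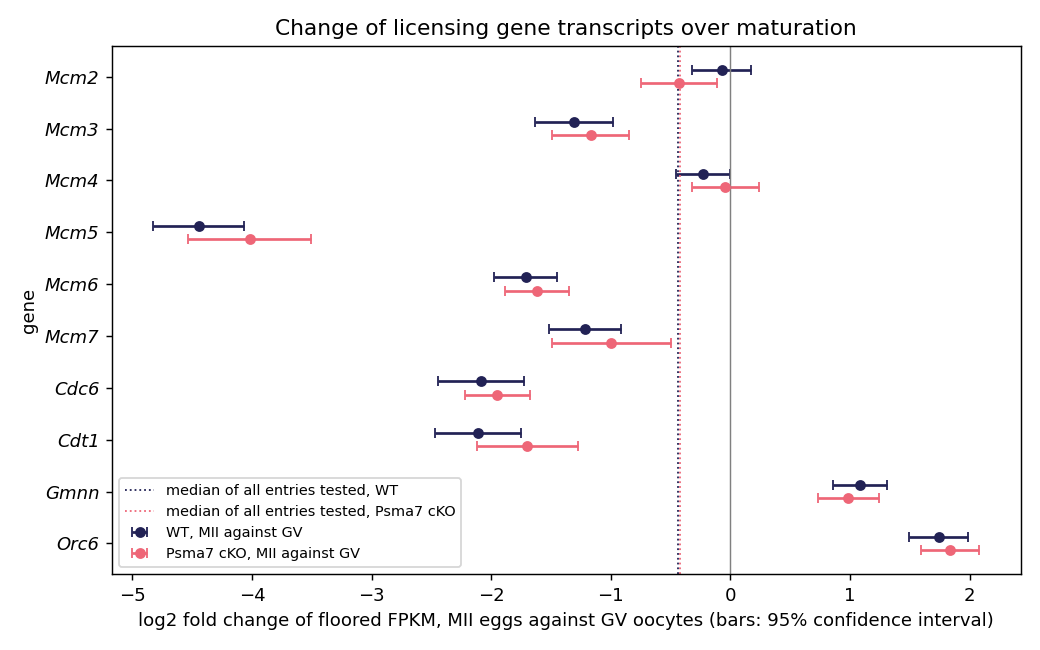
Log2 fold change of each licensing gene between GV oocytes and MII eggs in WT and Psma7 cKO females, on the scale of FPKM floored at 1, with 95% confidence intervals and 4 libraries per group. Dotted lines mark the median of all entries tested, -0.44 in WT and -0.42 in cKO. Mcm5 lies farthest to the left in both genotypes, Gmnn and Orc6 lie to the right of 0, and Mcm2 and Mcm4 lie between 0 and the medians or near them. The signs of Mcm2 in WT and of Mcm4 in both genotypes turn when libraries are rescaled by their median ratio.

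Because FPKM values of one library share its scaling, ratios within a library do not depend on it. The helicase subunits, which assemble in equal numbers, were set against their sum for this reason, as a description chosen after their values were seen. Mcm5 made up 20.6% to 24.7% of the summed Mcm2 to Mcm7 FPKM in WT GV oocytes and 1.96% to 2.59% in WT eggs. Mcm2 and Mcm4 went from 18.0% and 18.6% on average to 35.2% and 32.7%. The most abundant subunit exceeded the least abundant 2.28-fold to 3.15-fold in WT GV libraries and 14.1-fold to 18.2-fold in WT eggs. In cKO eggs the same ratio was 17.8, 16.1, 7.98 and 7.91, lowest in replicates 3 and 4, and Mcm5 made up 1.90% to 4.09% of the sum. Mcm2 made up 33.0% to 37.1% of the sum in WT eggs and 27.3% to 30.7% in cKO eggs, ranges that did not overlap. Mcm3 did not overlap either, in the opposite direction, with 8.85% to 10.7% in WT eggs and 10.9% to 11.7% in cKO eggs. Shares of the same sum depend on each other, and how often such shares separate for other genes was not counted. As FPKM, Mcm2 and Mcm3 overlapped between WT and cKO eggs, and limma called neither (adjusted p = 0.151 and 0.157). The shares of Mcm4, Mcm5, Mcm6 and Mcm7 overlapped between WT and cKO eggs. The sum itself went from 216 ± 32.6 to 104 ± 4.44 FPKM in WT and from 225 ± 29.0 to 109 ± 13.4 FPKM in cKO.

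The ratio of the inhibitor to its target was described likewise. Gmnn to Cdt1 stood at 0.850, 0.734, 1.54 and 0.875 in WT GV oocytes and at 8.76, 9.03, 6.86 and 10.9 in WT eggs. In cKO GV oocytes it was 1.27, 0.729, 0.754 and 0.956, and in cKO eggs 3.66, 7.03, 5.96 and 7.37. The transcript of the inhibitor thus went from a level close to that of its target to several times that level in both genotypes. The ratios of WT and cKO eggs overlapped. These are ratios of transcripts and not of proteins.

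Loss of Psma7 was examined next at the GV stage. None of the 10 licensing genes was called by limma between Psma7 cKO and WT GV oocytes, beside 0.118% of the 11062 entries tested. None of the 10 reached an unadjusted p under 0.05, beside 843 entries that were higher and 339 that were lower. All 10 overlapped between the genotypes, and how many of all entries did so was not counted. The log2 fold changes lay between -0.13 for Orc6 and 0.15 for Mcm3, and the lowest adjusted p was 0.791. The 95% confidence intervals bound these differences: the widest upward limit was a 1.41-fold higher level, for Mcm3, and the widest downward limit was 0.744 of the WT level, for Orc6. WT replicate 3 was the lowest WT library for Mcm2 to Mcm7, Cdc6 and Cdt1 and the highest for Gmnn and Orc6, and cKO replicate 1 was the lowest cKO library for Mcm2, Mcm3, Mcm5, Mcm6, Mcm7 and Cdt1. With both left out, again none of the 10 was called.

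In eggs the 10 genes were also not called between the genotypes, while 8.02% of the 9492 entries tested were, 620 higher and 141 lower in cKO eggs, or 537 and 223 after rescaling. This background depended on single libraries: of the fits that left out 1 library, the one without WT replicate 3 called 3 entries, those without WT replicate 1 or 4 called 12 and 39, and the one without cKO replicate 2 called 1160. Unadjusted p-values under 0.05 were found for Cdt1 and Mcm3, higher in cKO eggs, and for Mcm2, lower. Over all 9492 entries, 1952 reached such a p-value with a rise in cKO eggs and 835 with a drop. The 2 higher and 1 lower of the 10 genes are thus near the background. Cdt1 came closest, at 1.47 times the WT mean (log2 fold change 0.53 ± 0.18, adjusted p = 0.1002), with 3 of 4 cKO libraries above every WT library. Mcm3 was at 1.22 times the WT mean (adjusted p = 0.157) and Mcm2 at 85.9% of it (adjusted p = 0.151). Mcm5 was at 1.42 times the WT mean, with an interval on the log2 scale from -0.04 to 0.96. Gmnn and Orc6 were at 95.3% and 97.7% of the WT means, with intervals from -0.23 to 0.09 and from -0.18 to 0.11. All 10 genes overlapped between the genotypes, again without a count over all entries. Over the 10 the median log2 fold change was 0.19, beside 0.07 over all entries. Among cKO eggs Cdt1 was highest in replicate 1 and next in replicate 3, the library nearest to the GV profile, and both lay above every WT egg library. The part of this nearness in the values was not tested.

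Whether maturation differed between the genotypes was tested as the interaction of genotype and stage over all 16 libraries. None of the 10 genes was called by limma, beside 1.26% of the 10615 entries tested. None of the 10 had an unadjusted p under 0.05, beside 1347 entries with a positive and 534 with a negative term. The background of 134 calls went from 41 without cKO GV replicate 3 to 651 without cKO egg replicate 2. The interaction terms on the log2 scale lay between -0.35 for Mcm2 (interval -0.74 to 0.03, adjusted p = 0.331) and 0.43 for Mcm5 (interval -0.21 to 1.06, adjusted p = 0.505). The call of Mcm2 in cKO but not in WT maturation is therefore not shown to be a difference between the genotypes. For Cdt1 the term was 0.42 with an interval from -0.14 to 0.98.

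The other genes of the replication machinery were described from a list of 59, of which 54 or 55 were tested over maturation. In WT, 14 of 54 rose and 32 fell, and in cKO 13 of 55 rose and 31 fell. These counts are near the background, 26.1% higher and 52.4% lower in WT and 23.0% and 51.0% in cKO, and the counts of the gene groups below stand beside the same shares. The medians of -0.37 and -0.43 on the log2 scale were close to those of all entries tested, -0.44 and -0.42.

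The remaining subunits of the origin recognition complex and its partner Lrwd1 were all lower in WT eggs (6 of 6), the direction of 52.4% of all entries tested. The lowest was Lrwd1, at a log2 fold change of -3.22 ± 0.22, and the highest was Orc4, at -0.35 ± 0.12 (adjusted p = 0.0157), whose call was lost after rescaling (-0.12, adjusted p = 0.390). In cKO eggs 4 of 6 fell, beside 51.0%, and Orc4 was at 0.07 (adjusted p = 0.596) and Lrwd1 at -3.12 ± 0.23.

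Of 9 genes that act on licensing factors, 3 rose and 4 fell in WT eggs, and 2 rose and 4 fell in cKO eggs. Mcmbp, a binding partner of the Mcm proteins, was highest in both, at 0.86 ± 0.10 and 0.68 ± 0.10 on the log2 scale. Fbxo31, an F-box protein of a ubiquitin ligase that targets Cdt1, was lowest at -1.73 ± 0.17 and -2.06 ± 0.20. Its level was at most 0.424 FPKM in any egg library, below the floor of 1 FPKM, so these values understate its change.

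Among 12 genes of helicase activation, 3 rose and 7 fell in either genotype. Dbf4, the activator of the Cdc7 kinase, rose by 0.74 ± 0.07 in WT and 0.78 ± 0.09 in cKO on the log2 scale. Gins4, a subunit of the active helicase, was lowest, at -3.63 ± 0.10 and -2.70 ± 0.41. In eggs it stood at 12.7 to 16.8 FPKM in WT and at 16.2, 16.7, 69.5 and 34.9 FPKM in cKO. The paralogues Mcm8 and Mcm9, which act in DNA repair, both fell in both genotypes, by 0.62 to 0.81 on the log2 scale.

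At the replication fork 8 of 25 genes rose and 13 fell in WT, and 8 of 26 rose and 14 fell in cKO. The single-strand binding complex, replication protein A, was split. Rpa3 was the highest of the group, at 1.84 ± 0.13 in WT and 1.92 ± 0.12 in cKO on the log2 scale, and Rpa2 the lowest in WT on the floored scale, at -4.80 ± 0.11. Rpa2 levels were 5.27 to 7.37 FPKM in WT eggs and 9.90, 6.37, 43.5 and 33.5 FPKM in cKO eggs, highest in replicates 3 and 4 as for Mcm5. In cKO the lowest on this scale was Fen1, the flap endonuclease, at -3.52 ± 0.34. Without the floor the order differs. In WT eggs Fen1 stood at 2.89% of its GV mean and Rpa2 at 3.63%. In cKO eggs Pold1, a polymerase subunit, stood at 6.94% of its GV mean and Fen1 at 9.40%. Pold1 was near the floor. With the floor its GV mean was 1.89 times its egg mean in cKO, and in WT maturation it was not tested.

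Between the genotypes, none of the 55 other replication genes tested at GV was called, beside 0.118% of all entries, and 2 of 53 were called in eggs, beside 8.02%. The egg count depended on the libraries, from 0 without any 1 of the WT libraries or cKO replicate 1 to 6 without cKO replicate 2, where Fen1, Rfc3, Rfc4 and Rpa2 were called as well. Rfc2, a subunit of the clamp loader, was at 2.40, 2.61, 3.87 and 1.85 FPKM in WT eggs and at 7.36, 5.57, 14.2 and 7.21 FPKM in cKO eggs. It was 3.20 times higher in cKO eggs (log2 fold change 1.64 ± 0.31, adjusted p = 0.0276), without overlap, whereas its GV levels of 42.1 to 52.4 FPKM in WT and 44.4 to 56.6 FPKM in cKO overlapped. Its interaction term was 1.59 ± 0.34 (adjusted p = 0.0330). The egg call was lost without any 1 of the 4 WT egg libraries or cKO replicate 1, with adjusted p-values of 0.0527 to 0.0828, and the interaction call in 11 of 16 such fits, with 0.0512 to 0.0728. Cul4b, a scaffold of the ubiquitin ligase that degrades Cdt1 in S phase, was at 100, 94.5, 84.7 and 91.7 FPKM in WT eggs and at 65.6, 76.6, 68.4 and 75.2 FPKM in cKO eggs. It was lower in all 4 cKO libraries (log2 fold change -0.38 ± 0.08, adjusted p = 0.0315), and the call was lost in 6 of 8 fits that left out 1 library, with adjusted p-values of 0.0576 to 0.0947.

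For each licensing gene the entry with the most similar pattern over the 16 libraries was sought among 10605 others, by Pearson r of log2 FPKM and as a description. For Mcm5 it was Rpa1 (r = 0.998), another subunit of replication protein A. For Orc6 it was Prdx1 (r = 0.997), for Gmnn Pmfbp1 (r = 0.991), for Cdt1 Pabpc1l (r = 0.997) and for Cdc6 Tex261 (r = 0.995). Mcm6 was most like Afg3l2 (r = 0.997), Mcm3 like Aldh2 (r = 0.992) and Mcm7 like Adprh (r = 0.984). These values rest largely on the difference between the stages, which many entries share: 1931 entries exceeded r = 0.95 with Mcm5 and 772 with Orc6. Mcm2 (Pecam1, r = 0.910) and Mcm4 (Fancc, r = 0.823) had no entry above 0.95.

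The 10 genes do not neighbour each other in the mouse genome (GRCm38), though some share a chromosome. On chromosome 8 are Mcm5 (chr8:75109569-75128439), Orc6 (chr8:85299632-85308278) and Cdt1 (chr8:122568015-122573554), all on the plus strand. Mcm3 (chr1:20802968-20820312) and Mcm6 (chr1:128331590-128359664) share chromosome 1 on the minus strand. Exons of Mcm7 (chr5:138164583-138172422) overlap on the opposite strand with 321 bases of Ap4m1 and 64 bases of Cops6, and exons of Orc6 with 171 bases of Vps35. Smart-seq2 does not mark the strand, so reads in these stretches cannot be assigned by strand. Ap4m1 stayed under 1 FPKM in every library. Cops6 fell in WT eggs from a mean of 145 to 5.49 FPKM and was at 6.35, 8.02, 44.6 and 13.8 FPKM in cKO eggs. Vps35 was at 65.8 FPKM in WT GV oocytes and 54.0 FPKM in WT eggs on average, with overlapping ranges (log2 fold change -0.29, adjusted p = 0.0175), which is 0.15 above the median of all entries.

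Promoters were inspected for a sequence known from licensing genes. RefSeq promoters (GRCm38.p6, 250 bases before to 50 after the start) were at hand for 8 of the 10 genes, all but Mcm4 and Gmnn. They were searched on both strands for the letters TTTCCCGC, TTTGGCGC, TTTCGCGC and TTTGCCGC, forms of the sequence bound by E2F factors, which are known to drive licensing genes in dividing cells. A match was found in 6 of 8 genes, namely Mcm3, Mcm5, Mcm6, Mcm7 (in 1 of its 2 promoters), Cdc6 and Cdt1, and in neither Mcm2 nor Orc6. Of all 32851 promoters of this length 2.26% held a match, of the 27025 genes they belong to 2.6%, and of the other replication genes 15 of 49 (30.6%). Among all entries tested in WT maturation a match was about as frequent in those that fell (4.83%) as in those that rose (4.61%) or were not called (4.16%). A match describes the letters in this window and is not evidence of binding. The following stretches show 1 match for each of the 6 genes, in capitals, written 5′ to 3′ on the strand of the gene.
Mcm5, chr8:75109340-75109379, plus strand: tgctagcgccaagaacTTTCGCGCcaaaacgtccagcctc
Mcm6, chr1:128359792-128359831, minus strand: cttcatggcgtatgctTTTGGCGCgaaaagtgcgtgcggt
Mcm7, chr5:138172025-138172064, minus strand: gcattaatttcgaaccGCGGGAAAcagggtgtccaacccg
Cdc6, chr11:98907997-98908036, plus strand: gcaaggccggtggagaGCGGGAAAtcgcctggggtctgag
Mcm3, chr1:20820278-20820301, minus strand: cttccgtgGCGGGAAAacttggga
Cdt1, chr8:122568039-122568062, plus strand: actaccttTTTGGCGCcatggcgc
In Mcm7, Cdc6 and Mcm3 the capitals are the reverse complement of TTTCCCGC. In Mcm5 the match overlaps a TTTGGCGC on the other strand, and in Mcm6 a TTTCGCGC on the other strand.

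Transcript ends were inspected because poly(A) tails are known to lengthen or shorten on stored transcripts during maturation, and oligo-dT primes on these tails. The last 100 bases of the annotated transcript (GENCODE M21, the form with the longest coding region) were searched for TTTTAT and TTTTAAT, letters of the cytoplasmic polyadenylation element. At least 1 was present in Gmnn and Orc6, which rose and had 2 each, in Mcm2 and Mcm4, which were not called in WT, and in Mcm7 and Cdt1, which fell. None was present in Mcm3, Mcm5, Mcm6 and Cdc6, all of which fell. The annotated ends of Mcm3 and Cdc6 also lacked a polyadenylation hexamer (AATAAA or ATTAAA) in their last 50 bases, which the other genes had. For Mcm3 and Cdc6 the absence of an element is therefore less certain. Across the tested entries the element was found in 28.4% of those that rose in WT eggs, 22.5% of those not called and 13.9% of those that fell, and in 16.2% of all 21809 protein-coding genes. The stretches below, all in the 3′ UTR, show 1 element for each of the 6 genes in capitals.
Orc6, chr8:85308008-85308031, plus strand: ttttttaaaTTTTATttcactaaa
Gmnn, chr13:24751925-24751948, minus strand: gtgtgtatTTTTAATccgttttat
Mcm2, chr6:88883493-88883516, minus strand: agtttattTTTTAATagatttgaa
Mcm4, chr16:15623972-15623995, minus strand: ttcattaatTTTTATagatcctta
Mcm7, chr5:138164617-138164640, minus strand: gctgcacttTTTTATtctgccaat
Cdt1, chr8:122573076-122573099, plus strand: gttttggcTTTTAATaaagtcatg
The elements begin 55 bases before the annotated end in Orc6, 96 in Gmnn, 35 in Mcm2, 90 in Mcm4, 49 in Mcm7 and 45 in Cdt1. With 10 genes these counts are a description, and the ends used in oocytes were not measured here.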

How the data were processed

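The authors deposited FPKM values for 28618 entries in 16 libraries; their processing notes name TopHat2 2.1.1, Cufflinks 2.2.1 and the mouse build mm10. The gene annotation was not given in the sources used here. From these FPKM values, limma 3.58.1 (R 4.3.3), with an intensity trend, was run on log2 FPKM after values under 1 were set to 1, keeping entries whose average across the compared libraries was 1 FPKM or more. Fold changes on this scale understate those of low genes. P-values are two-sided and were adjusted by Benjamini-Hochberg over all entries tested, and genes with an adjusted p under 0.05 were called. All 10 licensing genes passed the filter in every comparison. Stages were compared within a genotype, genotypes within a stage, 4 against 4 libraries, and the interaction used all 16. Ratios of means used the same floor. The members and the gene lists were chosen with earlier results of these data known. Named besides the members were other replication genes called between genotypes or in the interaction, the highest and lowest of each gene group over maturation, and Psma7. Depth was estimated from 4806 genes with 1 annotated transcript. Alternatives were other floors, filters, scalings, variance models and libraries. Python 3.11.15 with pandas 2.3.3 was used for summaries.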

Additional observations from a re-analysis of the deposited data

Results flagged for a closer look

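In 5 of 60 groups of 4 libraries 1 library lay far from the others, relative to the range of its group. Chance alone does so in about 1 of 20 groups. Genes share libraries, so these groups are not independent and the count is a description. Cdt1 was low in replicate 3 of WT GV oocytes (52.2 FPKM) and in replicate 1 of Psma7 cKO GV oocytes (63.7 FPKM). Orc6 was low in replicate 3 of Psma7 cKO GV oocytes (60.1 FPKM). In WT eggs, replicate 3 was high in Cdc6 (10.7 FPKM) and low in Gmnn (136 FPKM). No maturation call of Cdt1, Orc6, Cdc6 or Gmnn was lost when any 1 library was left out. A difference between the stages in the effect of genotype was found for Rfc2, with an interaction term of 1.59 on the log2 scale (adjusted p = 0.0330), which 11 of 16 fits without 1 library did not keep past the threshold. That call was also lost with log2(FPKM + 1) (adjusted p = 0.0518) and with no filter (0.119). It was lost as well without both WT GV replicate 3 and cKO GV replicate 1 (0.0852).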

How the results depend on the processing

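Of the counts of called licensing genes, 6 lower and 2 higher in WT maturation, 7 lower and 2 higher in cKO maturation and 0 in the genotype comparisons and the interaction, each stayed within 1.5 times its value in every alternative run. The calls over all entries moved more: 761 between genotypes in eggs became 108 and the interaction's 134 became 60 with the replicate number as a block, and with 1 library left out they ran from 3 to 1160 and from 41 to 651. In eggs they were 1582 with all 16 libraries in 1 fit and 17 with no filter. Between genotypes at GV, 13 calls became 5 to 19 with 1 library left out, 6 with the block, 3 with no filter and 157 (1.42%) with all 16 libraries. Of the other replication genes, 0 were called at GV in every alternative, and the 2 called in eggs became 0 with no filter, 0 to 6 with 1 library left out and 7 with all 16 libraries (Pcna, Pold2, Rfc3, Rfc4 and Rpa2 added). Fen1 was gained with the floor of 0.1 FPKM (adjusted p = 0.0333) and with log2(FPKM + 1) (0.0412), and Lrwd1 without cKO egg replicate 4 (0.0375). Rfc4 was gained with the floor of 0.1 FPKM, where 4 genes were called in eggs. It was also gained with the filter of 5 FPKM and with entries summed per name, and Pcna was gained after rescaling. In the interaction Rpa2 was gained without cKO egg replicate 2 (0.0236). The lowest adjusted p of a licensing gene over all alternatives was 0.548 between genotypes at GV, 0.0653 in eggs and 0.167 for the interaction. With the replicate number as a block (replicate block), the counts were 6 and 2 in WT, 7 and 2 in cKO and 0 elsewhere. With this block the call of Cul4b in eggs was lost (adjusted p = 0.0653), and so it was without the intensity trend (adjusted p = 0.0517). The r of the deviations of libraries with the same number ran from -0.49 to 0.29. Whether such libraries belong together was not given in the sources used here, and with 4 libraries per group these values cannot decide it. The count of licensing genes past 3-fold, 5 in either genotype, was 8 in WT at 2-fold (2 higher and 6 lower, beside 7.64% and 35.2% of all entries) and 6 in cKO (1 and 5, beside 5.92% and 31.7%). At 5-fold it was 1 lower gene in each, beside 11.8% of entries in WT and 5.96% in cKO. After median-ratio rescaling it was 4 in WT (1 higher and 3 lower, beside 2.52% and 19.0%) and 3 in cKO (1 and 2, beside 1.90% and 14.0%); with 1 library left out it ran from 3 to 5 in cKO. Rescaling reversed small values, none of them called: Mcm5 (-0.0050), Cdc6 (-0.0017) and Gmnn (-0.013) between genotypes at GV, Mcm2 (0.16) and Mcm4 (0.0017) in WT maturation and Mcm4 (0.16) in cKO maturation. Leaving out libraries turned the sign of other uncalled log2 values. Between genotypes at GV, these ran from -0.13 to 0.17 for Mcm5, -0.055 to 0.084 for Cdc6, -0.054 to 0.21 for Cdt1, -0.063 to 0.10 for Gmnn and -0.020 to 0.11 for Rfc2. For Orc6 they ran from -0.065 to 0.0021 between genotypes in eggs and from -0.020 to 0.15 in the interaction. In cKO maturation they ran from -0.12 to 0.052 for Mcm4 and from -0.0016 to 0.13 for Orc4. The cause of these changes was not tested. The fit without WT GV replicate 3 and cKO GV replicate 1 was chosen after seeing the data. Mcm5 was left out of the egg genotype test by the filter of 5 FPKM, and limma warned that variances were unreliable when no filter was used. Depth limits Mcm5 in eggs and genes under 1 FPKM most.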

Other observations

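Within the Psma7 cKO eggs, some replication genes that fell over maturation were unevenly low, an observation made after their values were seen. Replicates 3 and 4 held the most Mcm5 (4.34 and 3.76 FPKM), Rpa2 (43.5 and 33.5 FPKM) and Gins4 (69.5 and 34.9 FPKM), and these were also the libraries nearest to the GV profile on the axis between the stages (0.604 and 0.784). Psma7 itself was 35.0 and 59.9 FPKM in them, beside 13.6 and 50.3 FPKM in replicates 1 and 2. This order was not general. Of the 6 licensing genes lower in WT eggs, only Mcm5 had its 2 highest cKO egg levels in replicates 3 and 4, as did 11 of 32 other replication genes lower in WT eggs. Mcm3, Mcm7, Cdc6 and Cdt1 were highest in replicate 1 (14.7, 15.6, 9.58 and 35.1 FPKM) and Mcm6 in replicate 3 (17.1 FPKM). Of the 32 other genes, 17 were highest in replicate 3 and 11 in replicate 1. With 4 libraries no relation between these values was tested.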
